A study of Drosophila melanogaster with 14 samples.

Results

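The subunits of the oxidative phosphorylation (OXPHOS) complexes were examined in RNA-seq libraries of *Drosophila melanogaster* larval testes. Members were chosen by name alone, without use of their expression: gene symbols starting with *ND-*, *UQCR-*, *COX4* to *COX8*, *ATPsyn* or *Sdh*, together with the protein-coding genes of mitochondrial DNA, whose symbols start with *mt:*. With 8 testis paralogs left out by the rule, it found 93 of the 13776 genes in the tables, of which 80 are nuclear and 13 mitochondrially encoded. By complex, 47 belong to complex I, 8 to complex II, 9 to complex III, 15 to complex IV and 14 to complex V. Of the nuclear members, 63 are standard subunits and 16 are paralogs whose symbol ends in L or in L and a number, such as *COX7CL* beside *COX7C*. The remaining one, *Sdhaf3*, carries the name of an assembly factor of complex II. *ND-MLRQ* was counted in complex I by its symbol, although its mammalian counterpart is now placed in complex IV.

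OXPHOS is the process by which mitochondria turn the energy of nutrients into ATP. Complex I takes electrons from NADH and complex II takes them from succinate. Both pass them to ubiquinone, from which complex III hands them to cytochrome c and complex IV to oxygen. Complexes I, III and IV pump protons across the inner membrane, and complex V, the ATP synthase, uses their return to make ATP. Complexes I, III, IV and V combine nuclear subunits with subunits that mitochondrial DNA encodes, whereas complex II is wholly nuclear. The male germline of *Drosophila* is known for rebuilding its mitochondria as spermatids form, and for gene paralogs expressed mainly in the testis that encode mitochondrial proteins.

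The study asked how the nuclear lamina shapes the genome of male germ cells, and its RNA-seq compared testes in which both lamins, Lam Dm0 and Lam C, had been depleted with control testes. Control males carried *bam-Gal4-VP16* alone. Lam-KD males carried *UAS-LamDm0-RNAi* opposite the same driver, and a single copy of *UAS-LamC-RNAi* opposite a chromosome without it. The driver was thus common to both groups and the 2 RNAi transgenes were not. Each group had 3 biological replicates of poly(A)+ RNA from larvae of the third instar, with about 200 testes pooled in each. The driver acts in late spermatogonia and spermatocytes (SpCs), but RNA came from whole testes with their somatic cells, so that fewer cells of a type and less RNA per cell cannot be told apart. No control library came from the RNAi strains, and an effect of the strain cannot be told apart from that of the knockdown.

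The libraries held between 5651960 and 7437111 expected reads on genes. TPM of *Lam*, the gene of Lam Dm0, was 87.0, 96.8 and 69.7 in the controls and 16.7, 15.1 and 14.9 in the Lam-KD libraries, and *LamC* fell from 28.6, 32.1 and 19.2 to 8.35, 9.36 and 7.08. SpC markers such as *bol*, *aly* and *sa* were present in all libraries. Of 11 germline genes listed 10 were found, with a summed TPM of 1114 to 1238 in the controls and 1141 to 1173 upon Lam-KD. Each of the 7 fat body genes listed was also present, with a summed TPM of 5954 to 8903 in the controls and 4772 to 7653 upon Lam-KD. The 3 cyst cell genes summed to 28.4 to 37.6 and 37.8 to 41.8 TPM, the 2 hub genes to 7.02 to 7.71 and 8.31 to 9.12, and the 6 muscle genes to 5.31 to 6.54 and 4.82 to 5.50. Control replicate 3 stood apart, with a TMM factor of 0.916 against 1.01 to 1.03 in the other 5 libraries. Many results are given with and without it, but those of single genes that are not members only with it. Of these markers, *Lsp1gamma* of the fat body was called lower (log2 fold change -0.73), *Mhc* of muscle lower (-0.71) and *tj* of cyst cells higher (0.66), and the SpC genes *sa* and *mia* were higher by adjusted *P* alone (0.35 and 0.38). The log2 fold change was above 0 for 5 and below 0 for 5 germline genes, from -0.27 (*bol*) to 0.38 (*mia*). It was above 0 for 3 and below 0 for 4 fat body genes. The part of fat body or somatic cells in the OXPHOS values was not tested.

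Transcripts of OXPHOS subunits were abundant in control testes. The standard nuclear subunits that passed the filter on reads had a median TPM of 199.5 in the mean of the controls, compared with 22.9 over all genes tested. Their median length was 670 bases, and short genes had higher TPM in general. The same median was 100.5 for all tested genes under 1000 bases and 15.5 for longer ones. TPM is divided by an effective length, which for short genes is far below their length. For *mt:ATPase8*, of 162 bases, it was 21.7 to 31.6 bases. Levels of short genes therefore compare less safely with those of longer ones. Together the 80 nuclear members took 2.04%, 2.06% and 1.93% of all TPM in the controls. The 13 mitochondrial genes took 4.33%, 3.85% and 4.16%, so that their summed TPM was 2.13, 1.87 and 2.15 times that of the nuclear members.

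**Figure D1:**
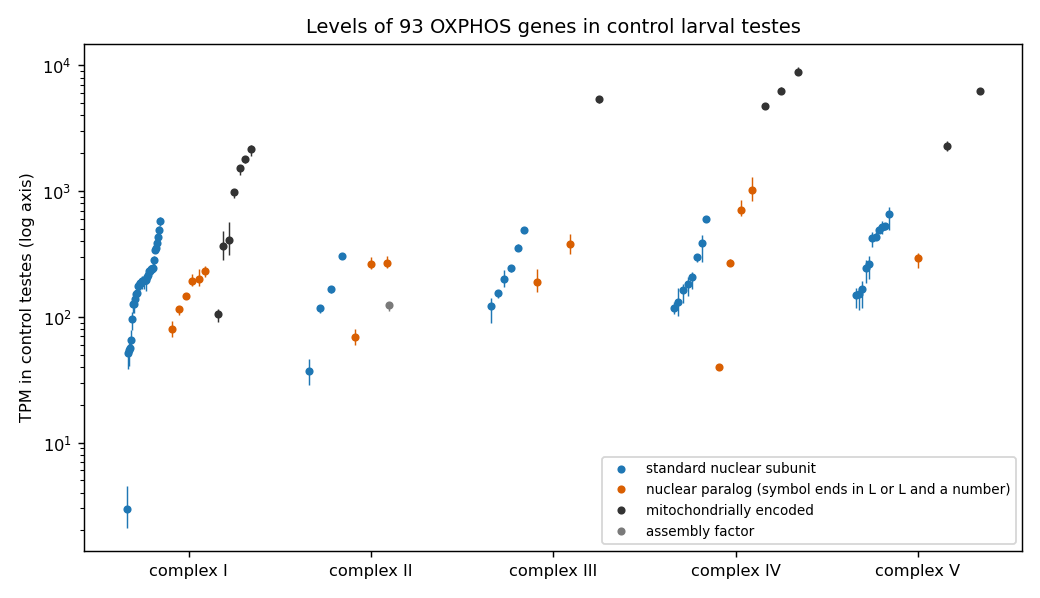
TPM in control larval testes (log axis) of the 93 members, by complex and kind of gene; points are means of the 3 controls and lines join the lowest and highest control. Most nuclear members lie within the same range in each complex, *ND-MNLL* lies far below, and 9 of the 13 mitochondrial genes lie above all nuclear members.

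The median control TPM of the standard subunits was 195.2 in complex I, 141.9 in complex II, 223.5 in complex III, 194.6 in complex IV and 423.4 in complex V. Within complex I the highest nuclear member was *ND-MLRQ*, with 625, 532 and 583 TPM in the controls and 761, 677 and 733 upon Lam-KD. The lowest of those tested, *ND-49*, which encodes a core subunit near the ubiquinone site, had 58.2, 58.0 and 38.4 TPM in the controls and 67.1, 64.7 and 59.0 upon Lam-KD. *ND-MNLL*, an accessory subunit, did not pass the filter, with 6, 3 and 3 reads in the controls and 4, 0 and 4 reads upon Lam-KD. It was the only member with fewer than 10 reads in the controls, and the other 92 were tested.

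In complex II, *SdhD*, a membrane anchor, had 303, 298 and 309 TPM in the controls and 279, 282 and 297 upon Lam-KD. *SdhB*, the iron-sulfur subunit, was lowest with 46.0, 37.1 and 28.6 TPM in the controls and 49.3, 43.7 and 49.1 upon Lam-KD, and its groups overlapped. In complex III, *UQCR-Q* was highest, with 500.2, 495 and 474 against 579, 569 and 584 TPM, and *UQCR-14* was lowest, with 140.3, 138 and 90.1 against 174, 161 and 150.5 TPM. In both genes all Lam-KD libraries were above all controls in TPM, but neither passed the test on reads. For *UQCR-Q* the ratio of mean TPM was 1.18, whereas the log2 fold change of reads was -0.09 (SE 0.09). The mean transcript length that *Salmon* gave this gene was 638, 614 and 621 bases in the controls and 555, 550 and 569 bases upon Lam-KD.

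In complex IV, both extremes were paralogs. *COX7CL* had 937, 829.9 and 1299 TPM in the controls and 867, 772 and 876 upon Lam-KD, the highest level of all nuclear members. *COX7AL2* had 37.7, 40.7 and 41.8 TPM in the controls and 25.2, 15.3 and 31.7 upon Lam-KD. Its log2 fold change, the lowest of all members, was -0.73 (SE 0.30, edgeR adjusted *P* = 0.113), and it rested on 13 to 29 reads per library. In complex V, *ATPsynC*, the subunit of the rotating ring, had 729, 749 and 493 TPM in the controls and 793, 885 and 798 upon Lam-KD. *ATPsyndelta*, a subunit of the central stalk, had the lowest mean over all 6 libraries, with 169.5, 170.004 and 113 TPM against 177, 171 and 203 TPM. Control replicate 3 was the lowest library of both. Their log2 fold changes were 0.26 (SE 0.11) and 0.20 (SE 0.12), and 0.14 and 0.08 without control replicate 3.

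Upon Lam-KD, OXPHOS genes showed small changes, and 1 of the 92 tested members was called changed. A gene was called when its Benjamini-Hochberg adjusted *P* in edgeR's quasi-likelihood test, taken over all 10318 genes tested, was under 0.05 and its ratio of mean TPM was over 1.5 in either direction. By this rule 1 member (1.09%) was higher and 0 members were lower, compared with 3.19% and 3.22% of all genes tested. DESeq2 called 1 member higher and 0 lower as well, and with edgeR's own fold in place of the TPM ratio 0 members were called in either direction. At an unadjusted *P* under 0.05 with the same fold threshold, 2 members (2.17%) were higher and 1 (1.09%) was lower, compared with 4.74% and 4.55% of all genes. Without a fold threshold, adjusted *P* was under 0.05 for 3 members (3.26%) with higher and 4 (4.35%) with lower read numbers, compared with 5.31% and 7.34% of all genes. Without control replicate 3 these were 10 and 5 members, and the shares of all genes were 7.1% and 8.84%.

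The member called was *COX8*, the smallest nuclear subunit of complex IV, which spans the inner membrane. It had 228, 225 and 165 TPM in the controls and 334, 327 and 336 TPM upon Lam-KD. All Lam-KD libraries were above all controls and close to each other, and control replicate 3 was the lowest library. The log2 fold change was 0.54 (SE 0.10, n = 3 and 3, edgeR adjusted *P* = 0.00789), and the ratio of mean TPM was 1.61. Reads rose from 291, 230 and 189 to 425, 428 and 384. With control replicate 3 left out, the log2 fold change of *COX8* was 0.46 with an adjusted *P* of 0.00265, but the TPM ratio of 1.47 no longer met the threshold, and the 1 member then called was *mt:ND6*. With Lam-KD replicate 2 left out, 0 members were called. With control replicate 1 left out, 3 members were called higher, *COX8*, *COX7B* and *ATPsynepsilonL*.

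Among the 6 members that passed by adjusted *P* alone, 2 are in complex V. *ATPsynepsilonL*, a paralog of the epsilon subunit of the central stalk, had 323, 312 and 244 TPM in the controls and 451, 419 and 390 upon Lam-KD. It rose by a log2 fold change of 0.54 (SE 0.10, edgeR adjusted *P* = 0.00635) without overlap between the groups, with a TPM ratio of 1.43. *ATPsynbeta*, the catalytic subunit, had 170, 159 and 118 TPM in the controls and 215, 203 and 185 upon Lam-KD. Its log2 fold change was 0.35 (SE 0.10, edgeR adjusted *P* = 0.0444), and 0.27 with an adjusted *P* of 0.0156 without control replicate 3.

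The 4 members that fell were 3 paralogs and *ND-B8*. *ND-B8*, an accessory subunit of complex I, had 177, 170 and 194 TPM in the controls and 131, 145 and 148 upon Lam-KD, with a log2 fold change of -0.49 (SE 0.12, edgeR adjusted *P* = 0.0290). *ND-51L2*, a paralog of the NADH-binding subunit *ND-51*, had 69.4, 75.9 and 93.04 TPM against 59.8, 55.2 and 58.5, with a log2 fold change of -0.55 (SE 0.14, edgeR adjusted *P* = 0.0317). *ND-B14.5AL* had 184, 177 and 242 TPM against 143, 137 and 168, with a log2 fold change of -0.54 (SE 0.16, edgeR adjusted *P* = 0.0465). *COX6AL2*, a paralog of *levy*, the COX6A subunit of complex IV, had 255.5, 259 and 287 TPM against 200.4, 222 and 211, with a log2 fold change of -0.41 (SE 0.12, edgeR adjusted *P* = 0.0478). The groups of these 4 genes did not overlap. In all 4, control replicate 3 was the highest library. Without it the log2 fold changes were -0.37, -0.34, -0.31 and -0.25 in the same order, and adjusted *P* was 0.0286, 0.00882, 0.0288 and 0.0210.

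**Figure D2:**
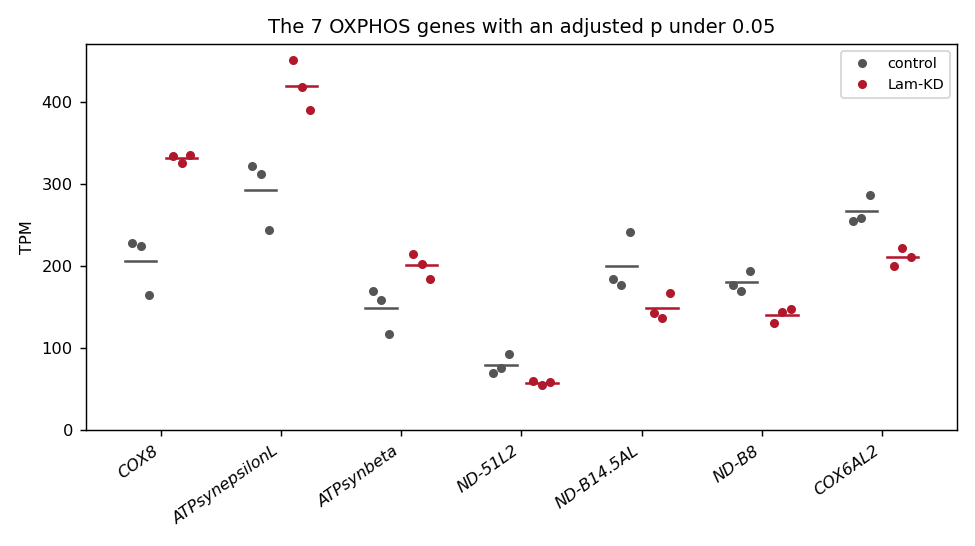
TPM in each library of the 7 members with an adjusted *P* under 0.05; points are libraries, 3 controls and 3 Lam-KD for each gene, and lines are group means. The Lam-KD libraries of *COX8* lie between 327 and 336 TPM, above all controls, and those of the 4 genes at the right lie below all of theirs.

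Standard subunits and paralogs were then described as groups. For the 62 standard subunits tested, the median log2 fold change was 0.10, with 44 above and 18 below 0. For the 16 paralogs it was -0.40, with 2 above and 14 below 0. The median over all genes tested was 0.01, and it was -0.07 for genes under 1000 bases and 0.03 for longer ones, while the median length of members was 687 bases. Without control replicate 3 the medians were 0.09 for standard subunits, with 50 above and 12 below 0, and -0.16 for paralogs, with 4 above and 12 below 0. Thus the signs stayed and the distance between the 2 groups of genes became smaller. After TMM normalization all Lam-KD libraries were above all controls for 25 standard subunits (40.3%) and 1 paralog (6.25%), compared with 20.2% of all genes. They were below all controls for 3 standard subunits (4.84%) and 9 paralogs (56.2%), compared with 20.5% of all genes.

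By complex, the median log2 fold change of standard subunits was 0.09 in complex I (33 tested), -0.05 in complex II (4), 0.06 in complex III (6), 0.21 in complex IV (8) and 0.20 in complex V (11). That of the paralogs was -0.11 in complex I (6 tested), -0.38 in complex II (3), -0.37 in complex III (2) and -0.44 in complex IV (4), while the only paralog of complex V was *ATPsynepsilonL*. Over all nuclear members, with *Sdhaf3*, the medians were 0.03, -0.18, 0.02, 0.09 and 0.22 for complexes I to V. When control replicate 3 was left out, these medians became 0.08, -0.08, 0.03, 0.04 and 0.12. Those of the standard subunits became 0.10, 0.00, 0.04, 0.14 and 0.11, and those of the paralogs of complexes I to IV became -0.08, -0.20, -0.10 and -0.22. *Sdhaf3* itself had a log2 fold change of -0.19 (SE 0.13, edgeR adjusted *P* = 0.316), and of -0.08 without control replicate 3.

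**Figure D3:**
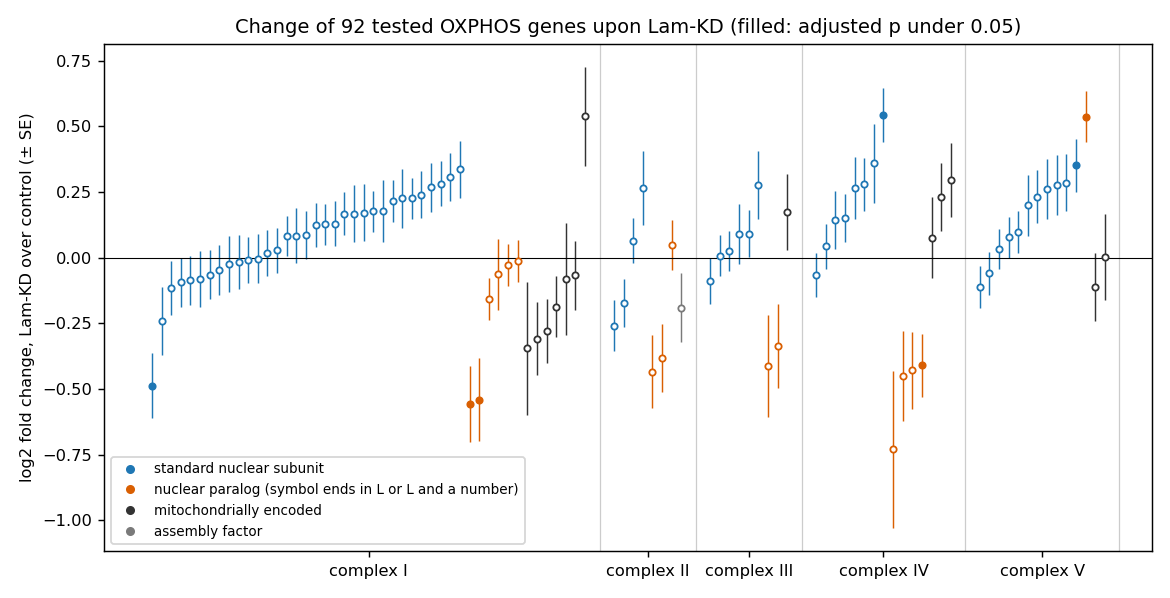
log2 fold change (Lam-KD over control, edgeR) with its SE for the 92 tested members, by complex and kind of gene; filled points have an adjusted *P* under 0.05. Standard subunits lie mostly between -0.26 and 0.36 with *COX8* above and *ND-B8* below, and 14 of the 16 paralogs lie below 0.

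Complex I illustrates the spread of standard subunits. The largest log2 fold changes there were those of *ND-51* (0.34, SE 0.11, edgeR adjusted *P* = 0.0633), *ND-30*, a core subunit near the ubiquinone site (0.31, SE 0.09, adjusted *P* = 0.0501), and *ND-13B*, an accessory subunit (0.28, SE 0.08, adjusted *P* = 0.0516), none of which passed. *ND-51* had 60.9, 61.9 and 40.7 TPM in the controls and 73.9, 74.0 and 68.6 upon Lam-KD. *ND-30* had 209, 225 and 159 against 264, 259 and 251 TPM. When control replicate 3 was left out, these 3 genes and *ND-39* passed at adjusted *P* values of 0.0494, 0.0217, 0.0195 and 0.0282. *ND-75*, the largest core subunit, had 60.2, 61.4 and 48.6 against 69.9, 74.5 and 65.4 TPM, with a log2 fold change of 0.22 (SE 0.08, edgeR adjusted *P* = 0.0839).

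In complex II the catalytic subunit *SdhA* had 107.9, 122 and 121 TPM in the controls and 103, 111 and 99.8 upon Lam-KD, with a log2 fold change of -0.26 (SE 0.10, edgeR adjusted *P* = 0.0956). Its paralog *SdhAL* had 59.7, 67.6 and 80.3 against 52.4, 55.8 and 56.6 TPM and a log2 fold change of -0.43 (SE 0.14, adjusted *P* = 0.0621). When control replicate 3 was left out, the log2 fold change of *SdhA* was -0.15 and that of *SdhAL* -0.23, and *SdhAL* then passed at an adjusted *P* of 0.0441. In complex III, *UQCR-C1* and *UQCR-C2*, the core proteins on the matrix side, differed least, with log2 fold changes of 0.01 (SE 0.08) and 0.03 (SE 0.08). In complex IV, *COX4* had 182, 181 and 129 TPM against 203, 214 and 210.3, with a log2 fold change of 0.28 (SE 0.10, adjusted *P* = 0.0819), and of 0.18 without control replicate 3. *COX5A*, the highest standard subunit of complex IV, had 604, 614 and 569 against 580.2, 625 and 609 TPM, with overlap and a log2 fold change of -0.07 (SE 0.08).

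Standard subunits on the X chromosome were set beside those on autosomes, as males have a single X. The median log2 fold change was 0.17 for the 11 X-linked standard subunits tested and 0.09 for the 51 autosomal ones, and 10 and 34 were above 0. The medians were 0.15 and 0.09 when control replicate 3 was left out. After TMM normalization all Lam-KD libraries were above all controls for 36.4% of the X-linked and 41.2% of the autosomal ones (all genes: 20.2%). They were below all controls for 0% and 5.88% (all genes: 20.5%). At an unadjusted edgeR *P* under 0.05, 18.2% and 29.4% were higher (all genes: 15.8%), and 0% and 3.92% were lower (18.5%). Whether X linkage bears on the change was not tested. The X-linked standard subunits were also expressed lower in the controls, with a median of 139.2 against 232.5 TPM. *ATPsynbeta* and *ND-49* are the members on chromosome 4.

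Paralogs were in many cases expressed above their standard subunits in larval testes. For the 16 pairs, in which *levy*, *cype* and *sun* served as the standard COX6A, COX6C and ATP synthase epsilon subunits, TPM of the paralog was above that of the standard subunit in all 3 controls for 11 pairs and below it in all 3 for 4. The largest ratio was that of *COX7CL* to *COX7C*, with 7.10, 7.36 and 12.3 in the controls and 5.09, 5.48 and 5.77 upon Lam-KD. *SdhBL* to *SdhB* followed with 5.31, 8.16 and 8.95 in the controls and 5.83, 7.18 and 5.72 upon Lam-KD, where the groups overlapped. *ND-20L* was at 2.98, 3.90 and 4.05 times *ND-20* in the controls and at 2.80, 2.85 and 2.83 times upon Lam-KD. At the other end, *COX7AL2* was at 0.0853, 0.0908 and 0.153 times *COX7A* in the controls and at 0.0544, 0.0342 and 0.0707 times upon Lam-KD.

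The mean ratio was lower upon Lam-KD for 15 of the 16 pairs, and for 9 of them all Lam-KD libraries were below all controls. Against control replicates 1 and 2 alone the number was 9 as well. It could not differ, as control replicate 3 had the highest ratio in all 15. *ND-51* served in the pairs of both *ND-51L1* and *ND-51L2*, and no like share over all genes was taken. *ND-51L2* was above *ND-51* in all controls, with ratios of 1.14, 1.23 and 2.28, and below it in all Lam-KD libraries, with 0.810, 0.746 and 0.854. *ND-B14.5AL* went from 1.00, 1.02 and 1.44 times *ND-B14.5A* to 0.772, 0.686 and 0.868 times. *COX6CL* went from 2.22, 2.56 and 4.50 times *cype* to 1.64, 1.69 and 1.80 times. The exception was *ATPsynepsilonL*, which was at 1.16, 1.23 and 0.836 times *sun* in the controls and at 1.62, 1.57 and 1.71 times upon Lam-KD. Control replicate 3 had the highest ratio in all pairs but this one, where it had the lowest.

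**Figure D4:**
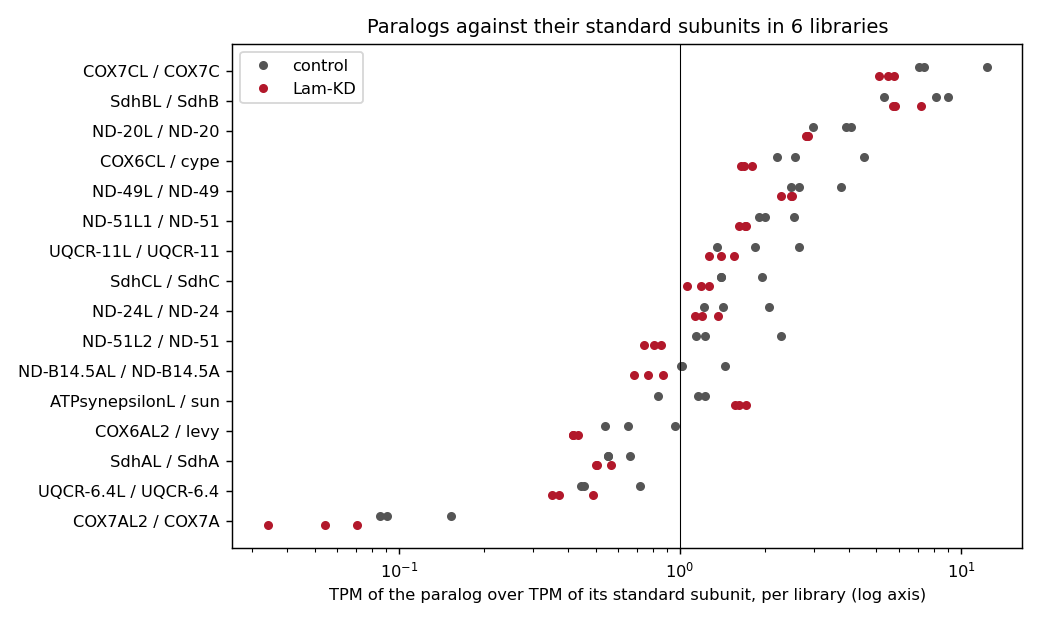
Ratio of the TPM of each paralog to that of its standard subunit (log axis) in each of the 6 libraries, ordered by the mean control ratio; the line marks equal levels. The mean ratio is above 1 for 12 of 16 pairs in the controls, and Lam-KD libraries lie to the left of all controls in 9 pairs and to the right in 1.

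Summed over all 16, paralogs had 4136, 4199 and 5072 TPM in the controls and 4050.3, 3921 and 4154 upon Lam-KD, with overlap. Standard nuclear subunits summed to 16110, 16288 and 14138 TPM in the controls and 17582, 17675 and 17771 upon Lam-KD, without overlap. The ratio of paralogs to standard subunits was therefore 0.257, 0.258 and 0.359 in the controls and 0.230, 0.222 and 0.234 upon Lam-KD. Neither sum held *levy*, *cype* and *sun*, or the 8 paralogs left out by the rule. The ratio is thus not the share of paralogs in all OXPHOS RNA. The sum over all 80 nuclear members was 20358, 20619 and 19342 TPM in the controls and 21757, 21702 and 22058 upon Lam-KD, a ratio of means of 1.09, or 1.07 without control replicate 3. This ratio was near the median ratio over all genes tested, which was 1.07.

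Of the mitochondrially encoded members, 5 were among the 10 genes with the highest TPM in each library. *mt:CoIII*, a core subunit of complex IV, had the highest TPM of all 13776 genes in each library, with 9709, 8429 and 8608 in the controls and 12399, 11312 and 11402 upon Lam-KD. The other core subunits of complex IV were *mt:CoI*, with 6764, 5929 and 5927 against 7502, 6715 and 6653 TPM, and *mt:CoII*, with 5012, 4489 and 4816 against 6341, 5659 and 5703 TPM. *mt:Cyt-b*, the only mitochondrially encoded subunit of complex III, had 5662, 4996 and 5413 against 6981, 6098 and 6199 TPM. All Lam-KD libraries of *mt:CoIII*, *mt:CoII* and *mt:Cyt-b* were above all controls in TPM, whereas *mt:CoI* overlapped. After TMM normalization *mt:Cyt-b* overlapped as well. The log2 fold changes of the 4 genes were 0.30 (SE 0.14), 0.08 (SE 0.15), 0.23 (SE 0.13) and 0.18 (SE 0.14) for *mt:CoIII*, *mt:CoI*, *mt:CoII* and *mt:Cyt-b*. With edgeR adjusted *P* of 0.159, 0.748, 0.221 and 0.406, none of them passed. Without control replicate 3, *mt:CoIII* and *mt:CoII* had adjusted *P* of 0.0234 and 0.0227, at log2 fold changes of 0.34 and 0.32.

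In complex V, *mt:ATPase6*, which forms the proton channel beside the ring, had 6416, 6059.9 and 6349 TPM in the controls and 6577, 5704 and 6093 upon Lam-KD. *mt:ATPase8* had 2259, 2084 and 2519.9 against 2118, 1864 and 2388 TPM. Both overlapped between the groups, and their log2 fold changes were -0.11 (SE 0.13) and 0.00 (SE 0.16). The 2 reading frames overlap on 1 transcript, so that reads in the shared part cannot be assigned to one of them by sequence.

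The 7 mitochondrially encoded subunits of complex I form membrane-embedded parts of its proton pump. *mt:ND3* had 2219, 1897 and 2319.5 TPM in the controls and 2355, 2019 and 1942 upon Lam-KD. *mt:ND1* had 1869, 1678 and 1894 against 1684, 1489.6 and 1559.6 TPM, and *mt:ND4* had 1597, 1343 and 1612 against 1429, 1215 and 1278 TPM. These were followed by *mt:ND5*, with 1023, 889 and 1016 against 1092, 939 and 952 TPM. All 4 genes overlapped between the groups. *mt:ND2* had 352, 309.8 and 570.1 against 450.4, 292 and 302 TPM, and *mt:ND4L*, whose frame overlaps that of *mt:ND4*, had 322, 285 and 482 against 482, 326 and 328 TPM. Control replicate 3 and Lam-KD replicate 1 were the high libraries of both. *mt:ND6* was lowest, with 112, 90.2 and 116 against 211, 130.4 and 173 TPM. Its groups did not overlap in TPM but did after TMM normalization.

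*mt:ND6* had a log2 fold change of 0.54 (SE 0.19, edgeR adjusted *P* = 0.0766) and did not pass. Without control replicate 3 it was 0.69 with an adjusted *P* of 0.0118, and the gene was then called higher. The other 6 had log2 fold changes between -0.34 (*mt:ND2*, SE 0.25) and -0.07 (*mt:ND5*, SE 0.13), and those of *mt:ND4* and *mt:ND1* were -0.31 (SE 0.14, adjusted *P* = 0.145) and -0.28 (SE 0.12, adjusted *P* = 0.131), and -0.19 and -0.18 without control replicate 3. By adjusted *P*, 0 of the 13 mitochondrial genes passed with edgeR or with DESeq2, and 1 was higher and 2 were lower at an unadjusted edgeR *P* under 0.05 (7.69% and 15.4%, compared with 15.8% and 18.5% of all genes). The median over the 13 mitochondrial genes was -0.07, with 6 above and 7 below 0. It was 0.11 without control replicate 3, with 9 above and 4 below 0, so that its sign rested on this library.

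**Figure D5:**
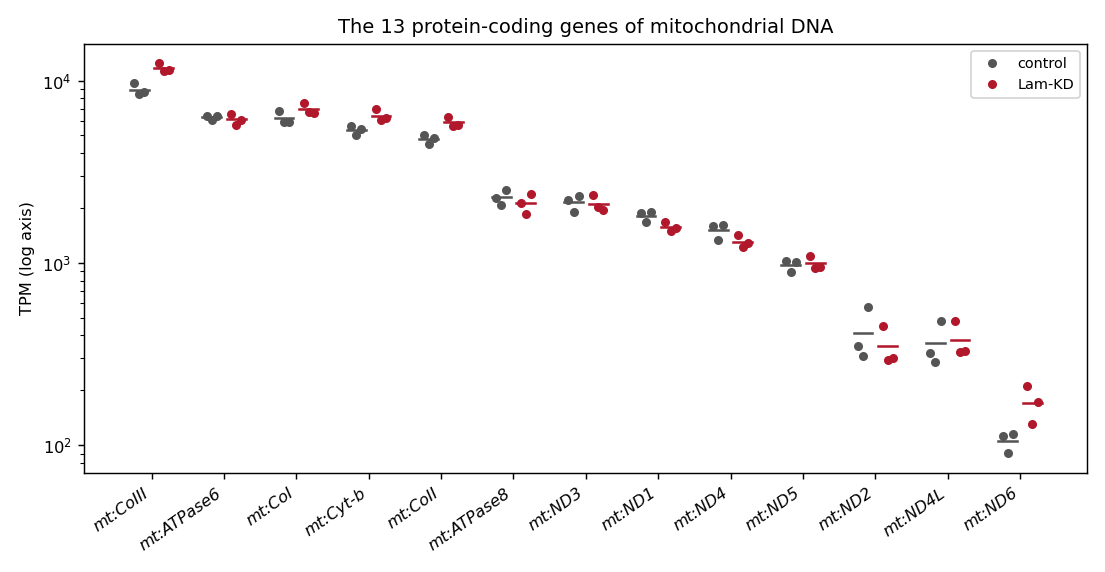
TPM (log axis) of the 13 protein-coding genes of mitochondrial DNA in each library, ordered by control mean; points are libraries and lines are group means. Lam-KD libraries lie above all controls for *mt:CoIII*, *mt:Cyt-b*, *mt:CoII* and *mt:ND6*, and the groups overlap for the other 9. By TPM, Lam-KD libraries were above all controls for 2218 of the 10318 genes tested. After TMM normalization this held for *mt:CoIII* and *mt:CoII* (15.4% of the 13), compared with 20.2% of all genes.

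The sum over the 13 mitochondrial genes was 43317, 38480 and 41641 TPM in the controls and 49621, 43762 and 44973 upon Lam-KD, a ratio of means of 1.12. Lam-KD replicate 1 was highest and control replicate 2 lowest. By reads, the same genes took 2.80%, 2.37% and 2.69% of each control library and 3.17%, 2.71% and 2.85% of each Lam-KD library, with overlap. All libraries were selected for poly(A), so that these are not shares of total mitochondrial RNA. The 4 genes transcribed from the minor strand of mitochondrial DNA (*mt:ND1*, *mt:ND4*, *mt:ND4L* and *mt:ND5*) had summed TPM of 0.125, 0.122 and 0.137 times that of the 9 genes of the major strand in the controls, and of 0.104, 0.0997 and 0.101 times upon Lam-KD. The groups did not overlap, and the lowest control was above the highest Lam-KD library. Genes of the same strand differed, however. On the major strand the ratio of mean TPM was 1.12 to 1.31 for *mt:CoI*, *mt:CoII*, *mt:CoIII* and *mt:Cyt-b*, and 1.62 for *mt:ND6*. It was 0.848 to 0.981 for *mt:ND2*, *mt:ND3*, *mt:ATPase6* and *mt:ATPase8*. On the minor strand it was 0.870 for *mt:ND1*, 0.862 for *mt:ND4*, 1.04 for *mt:ND4L* and 1.02 for *mt:ND5*. This grouping by strand was chosen after the values were seen.

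Other genes of the pathway were described from lists. Of 10 listed OXPHOS subunits and cytochromes c whose symbols fall outside the rule, 8 were found. Their median log2 fold change was 0.07. At an adjusted *P* under 0.05, 0 of them passed with edgeR or with DESeq2 (2 were higher at an unadjusted *P* under 0.05 in edgeR). Among them, *cype* had 287, 253 and 190 TPM in the controls and 352, 340.1 and 341 upon Lam-KD, with a log2 fold change of 0.36 (edgeR adjusted *P* = 0.0524). *Cyt-c-d*, the cytochrome c known from the male germline, had 880, 888 and 1033 against 822, 858 and 905 TPM, with overlap. Of 23 genes listed as assembly factors 10 were found, of which 0 passed higher (2 at an unadjusted *P*) and 1 passed lower. That gene, *ttm3*, had 143, 124 and 169 against 111, 104 and 111 TPM (log2 fold change -0.51, edgeR adjusted *P* = 0.0443). The product of *ttm3* is known rather as a relative of Tim50, which acts in protein import. Of 13 genes listed for the TCA cycle, which supplies NADH and succinate, 10 were found. Of these, 1 passed lower, the citrate synthase gene *kdn* (log2 fold change -0.34, edgeR adjusted *P* = 0.0412), and 0 passed higher (1 at an unadjusted *P*). DESeq2 gave the same counts for both lists. Of all genes tested, 5.31% passed higher and 7.34% lower by adjusted *P* in edgeR. At an unadjusted edgeR *P* under 0.05 these shares were 15.8% and 18.5%. By that threshold 0 OXPHOS subunits outside the rule, 1 assembly factor and 1 TCA cycle gene were lower.

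Of 23 genes listed for the expression and upkeep of mitochondrial DNA and for mitochondrial biogenesis, 18 were found. Of these, 0 passed in either direction by adjusted *P*, with edgeR or DESeq2, and 0 at an unadjusted edgeR *P* under 0.05. Their median log2 fold change was 0.07. *TFAM*, which packages mitochondrial DNA and starts its transcription, had 83.6, 91.0 and 64.7 TPM in the controls and 94.97, 94.5 and 97.5 upon Lam-KD. *PolrMT*, the mitochondrial RNA polymerase, had 14.0, 16.2 and 12.1 against 15.05, 18.2 and 14.1 TPM. Of the 71 mitochondrial ribosomal proteins, which translate the 13 mitochondrial genes, 4 passed higher and 0 lower by adjusted *P* with edgeR and with DESeq2, and 3 of the 4 were called (*mRpS35*, *mRpL18* and *mRpL36*). These are 5.63% and 4.23% of the list, compared with 5.31% and 3.19% of all genes. At an unadjusted edgeR *P* under 0.05, 22 (31.0%) were higher and 1 (1.41%) was lower, compared with 15.8% and 18.5% of all genes. Their median log2 fold change was 0.21, with 62 above and 9 below 0, and 0.13 without control replicate 3. *mRpS35* had 24.4, 26.9 and 14.2 TPM in the controls and 43.7, 45.2 and 34.6 upon Lam-KD, with a log2 fold change of 0.85 (SE 0.17, edgeR adjusted *P* = 0.00955).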

How the data were processed

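RNA of 3 control and 3 Lam-KD replicates was grouped by the labels, which name control or knockdown testes. The genotypes were taken from the methods of the study. LAD positions of the same series were not used here. The authors deposited expected counts per gene, which *Salmon* estimated on the BDGP5.78 annotation without normalization, and beside them TPM values from the same estimates, which have the same sum in each library. TPM divides by an effective length that depends on the fragment lengths of a library, so that TPM ratios and read ratios of short genes can differ. How *Salmon* divided reads between paralogs or overlapping genes was not examined.

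Expected counts were rounded and tested with edgeR 4.0.16 in R 4.3.3 (TMM, quasi-likelihood test, at least 10 reads in at least 3 libraries, *Lam* and *LamC* left out, Benjamini-Hochberg adjustment over all genes), with DESeq2 1.42.0 as an alternative. Each SE was obtained from the log2 fold change and its *F* statistic. Lists are given by counts and medians, without a test of the list. Of 13776 gene IDs, 13484 had a symbol in a Release 6 gene table, whose coordinates were not used. The test was also run on simulated counts with larger changes and without an outlying library. That run does not bear on the small changes described here. Summaries used Python 3.11.15, pandas 2.3.3 and matplotlib 3.10.9.

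Members, lists and tests were chosen with earlier results of these data known. Values per library are given for members called or past the adjusted *P*, the mitochondrial genes, the highest and lowest nuclear members of each complex by mean TPM, and the 3 largest and 3 smallest log2 fold changes, and other members were named after their values were seen. Alternatives were another normalization, other filters and thresholds, DESeq2, a replicate block, each library left out, the mitochondrial genes left out and rescaled TPM. The medians of standard subunits and of paralogs and the summed TPM of paralogs were added after seeing the data.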

Additional observations from a re-analysis of the deposited data

How the results depend on the processing

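The number of members called higher, 1, became 2 with an unadjusted *P*, 3 without the fold threshold, 0 with edgeR's own fold over 1.5 and between 0 and 3 with a library left out. The number called lower, 0, became 1 with an unadjusted *P* and 4 without the fold threshold, and stayed at 0 with any library left out. With a replicate block 2 members were called higher and 0 lower. Correlations of the deviations of same-numbered libraries were low (0.060, 0.073 and 0.191). Control replicates 2 and 3 went best with the Lam-KD library of the same number, and control replicate 1 with Lam-KD replicate 2 (0.117). The libraries were treated as unpaired, and whether same-numbered ones shared a batch was not tested. The block moved the calls over all genes from 661 to 827.

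With a library left out, the median log2 fold change ranged from 0.024 to 0.069 for nuclear members and from -0.18 to 0.11 for mitochondrial genes. For complexes I to V it ranged from 0.0093 to 0.081, from -0.23 to -0.084, from 0.0034 to 0.030, from 0.045 to 0.12 and from 0.12 to 0.29. For standard subunits it ranged from 0.088 to 0.12 and for paralogs from -0.49 to -0.16. Standard subunits had a median of 0.083 with DESeq2 or with its size factors, and of 0.11 without the filter. A filter of 50 reads, which removes *COX7AL2*, gave 0.14 for complex IV.

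The ratio of summed TPM was 1.07 to 1.10 for nuclear members, 1.08 to 1.15 for mitochondrial genes and 0.872 to 0.970 for paralogs with a library left out. Rescaled by the median of ratios it was 1.01, 1.04 and 0.834. CPM with TMM library sizes gave 1.02 for nuclear members and 0.878 for paralogs. Under all these settings the sums of nuclear and mitochondrial genes stayed above those of the controls and that of paralogs below.

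Single genes that changed sign were *UQCR-C1* and 5 mitochondrial genes, and none of them was called. *UQCR-C1* had a log2 fold change of -0.0037 with DESeq2, -0.0038 with its size factors in edgeR and -0.0073 to 0.025 with a library left out. The log2 fold change of *mt:ATPase8* was -0.012 with DESeq2, -0.011 with its size factors in edgeR and -0.0042 with the filter of 50 reads. With a library left out it ranged from -0.14 to 0.18, *mt:CoI* from -0.00066 to 0.13, *mt:ND2* from -0.58 to 0.061, *mt:ND4L* from -0.24 to 0.24 and *mt:ND5* from -0.18 to 0.038. *mt:ND6* was called with the block. Of the other members described one by one with a log2 fold change and its SE, none changed sign under these alternatives. The cause of these differences was not tested.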
